A study of Rattus norvegicus with 16 samples.

Results

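Potassium channel subunits were followed in rat myelinating spinal cord cultures 24 h after addition of 3 FGF2 proteins. The genes were those whose symbol begins with Kcn, each measured by an array row that carries no other symbol, without Kcnj10 and Kcnj16, and the rule yielded 73 of the 14557 genes with a row of their own. Each of the 73 had 1 row. The cultures were prepared from spinal cords of Sprague-Dawley embryos at E15.5 and grown on a monolayer of astrocytes derived from neurospheres of P1 striatum, so that neurons, oligodendrocytes, their progenitors, astrocytes and microglia were present together. At 18 days in vitro (DIV) they were treated with human FGF2 (humanFGF2), with a protein labelled wtFGF2, or with F2V2, an FGF2 that lacks its N-terminal stretch and was designed to favour FGFR1, or were left untreated (Control), and RNA was collected at 19 DIV. The labels do not say how wtFGF2 differs from humanFGF2, and no dose was taken from them. Each group had 4 Affymetrix Rat Gene 2.1 ST arrays, 16 in all. The labels describe the 4 arrays as independent cultures and a legend of the study as technical replicates, and p-values therefore cover array-to-array spread that may be partly technical.

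Potassium channels set the resting potential of neurons and glia and return a neuron to rest after each action potential. Voltage-gated (Kv) channels are assembled from pore-forming alpha subunits together with auxiliary subunits, and in myelinated axons the Kv1 channels lie beneath the myelin beside the node of Ranvier. Inward rectifiers (Kir) and two-pore (K2P) channels carry background current, and glial Kir channels take up potassium released by active axons.

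Expression is given as log2 values, and a difference of 1 on this scale is a 2-fold difference. A subunit was called at an adjusted p (limma, Benjamini-Hochberg over 15653 rows with a gene symbol) under 0.05 if it also changed 1.4-fold or more, which is 0.485 on the log2 scale. Of the 73 subunits, 50 reached a log2 value of 5 on at least 4 arrays, and 19 did not reach it on any array. Values near 5 or below are treated here as near the floor, where a fold change may be understated. This level was chosen and not measured, and the lowest value of the series was 3.02. Levels of different genes are not compared, since each depends on its own probes. No array stood apart: correlations between arrays of 1 group lay between 0.9913 and 0.9958, and array medians between 5.805 and 5.918. No scan date or other batch was given in the sources used here.

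Most of the subunits that changed were down-regulated. With humanFGF2, 15 of the 73 were called lower (20.5%, against 8.6% of all rows tested) and 3 higher (4.11%, against 10.5% of all rows). With wtFGF2, 13 were called lower (17.8%, against 5.92% of all rows) and 1 higher (1.37%, against 7.06%). With F2V2, 5 were called lower (6.85%, against 3.6% of all rows) and 1 higher (1.37%, against 5.78%). The median difference over the 73 subunits was -0.16 with humanFGF2, -0.15 with wtFGF2 and -0.17 with F2V2, whereas over all rows it was 0.02, 0.03 and 0.01. By adjusted p alone, without the fold criterion, 30 subunits were lower and 7 higher with humanFGF2, 33 lower and 6 higher with wtFGF2, and 27 lower and 6 higher with F2V2. Of all rows, 21.3% were lower and 24.5% higher by adjusted p alone with humanFGF2, 18.6% and 20.7% with wtFGF2, and 16.3% and 17.3% with F2V2. The comparisons of the ligands share the same 4 Control arrays and are therefore given side by side. With at least 1 ligand, 22 subunits were called, and 51 were called with none. The share of all rows called with at least 1 ligand was not computed, so this count has no background beside it. Leaving out Control array 2 raised the count lower with F2V2 to 8, and leaving out Control array 1 or 3 raised the count higher with wtFGF2 to 2.

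**Figure D1:**
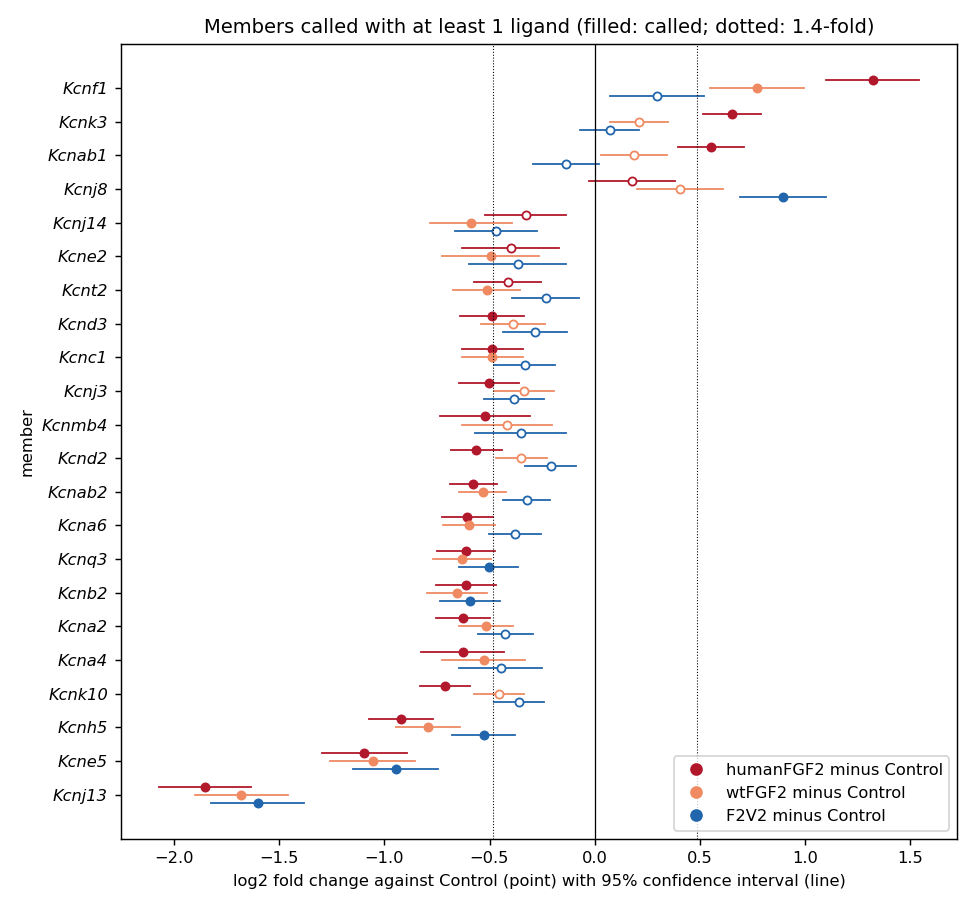
Log2 fold change against Control (x axis) of the 22 subunits called with at least 1 ligand (y axis), with its 95% confidence interval as a line. Filled points were called and dotted lines mark 1.4-fold; Kcnf1 lies at the top with 1.32 for humanFGF2, 0.77 for wtFGF2 and 0.30 for F2V2, and Kcnj13 at the bottom with -1.85, -1.68 and -1.60.

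Sequences just before the transcription start are shown for the subunits that carry the main contrasts: Kcnj13, the strongest fall with each ligand, Kcnf1, the strongest rise with humanFGF2, and Kcnj8, which rose with F2V2. They are the 250 bases before the start in RefSeq's annotation of GRCr8, on the minus strand, at chr9:95518987-95519236 for Kcnj13, chr6:45693707-45693956 for Kcnf1 and chr4:177246549-177246798 for Kcnj8, and the start used for Kcnj13 is not the outer end of its annotated gene. Capitals mark the letters TATAAA.
Kcnj13: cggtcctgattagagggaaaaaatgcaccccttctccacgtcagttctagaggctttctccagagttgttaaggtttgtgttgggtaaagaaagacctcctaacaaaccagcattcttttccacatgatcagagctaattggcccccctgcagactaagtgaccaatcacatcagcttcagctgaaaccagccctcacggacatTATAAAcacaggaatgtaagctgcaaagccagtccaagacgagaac
Kcnf1: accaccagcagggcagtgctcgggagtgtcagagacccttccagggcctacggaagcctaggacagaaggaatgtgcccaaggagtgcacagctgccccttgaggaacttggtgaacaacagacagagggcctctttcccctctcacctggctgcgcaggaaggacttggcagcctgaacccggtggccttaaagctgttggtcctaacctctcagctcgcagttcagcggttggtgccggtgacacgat
Kcnj8: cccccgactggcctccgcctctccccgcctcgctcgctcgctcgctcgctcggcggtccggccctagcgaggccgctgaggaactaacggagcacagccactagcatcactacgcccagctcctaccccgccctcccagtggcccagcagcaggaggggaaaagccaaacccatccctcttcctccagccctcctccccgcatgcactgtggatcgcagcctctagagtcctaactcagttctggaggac

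The table of promoters held 49 of the 73 subunits, 16 of them among the 22 called. In windows of 250 bases before to 50 bases after the start, TATAAA was searched on both strands after the sequences had been read, and it stood in 1 of the 49, that of Kcnj13, 46 bases before the start; 14.2% of 33469 rat promoters held it. The GC content of the printed bases was 46.8% for Kcnj13, 59.6% for Kcnf1 and 66.8% for Kcnj8. None of the 16 promoters of called subunits held TGANTCA (AP-1, in 7.33% of all promoters), TGACGTCA (CRE, 1.83%), CCGGAAGT (ETS, 3.81%), TTCAGCACC (a part of RE1, 0.356%) or CTTTGAT (TCF/LEF, 3.63%), each searched on both strands. These matches describe the letters in the window and no binding was measured.

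Alpha subunits of the Kv1 class give axons and terminals their low-threshold potassium current. With humanFGF2 and with wtFGF2, 3 of the 8 Kv1 genes (Kcna2, Kcna4 and Kcna6) were called lower, where 8.6% and 5.92% of all rows were, and 0 higher. With F2V2 no Kv1 gene was called. By adjusted p alone, 5 of the 8 were lower with each ligand (62.5%, against 21.3%, 18.6% and 16.3% of all rows with humanFGF2, wtFGF2 and F2V2). With wtFGF2, 1 was higher by adjusted p alone (12.5%, against 20.7% of all rows). Kcna2, which with Kcna1 forms the juxtaparanodal channels of myelinated axons, had log2 values of 10.34, 10.44, 10.38 and 10.57 with humanFGF2, 10.55, 10.62, 10.57 and 10.43 with wtFGF2, 10.60, 10.58, 10.65 and 10.71 with F2V2, and 11.13, 10.95, 11.10 and 11.07 in Control. All 4 Control values lay above the 12 values of treated cultures. Its log2 fold change was -0.63 with humanFGF2 (standard error 0.06, adjusted p = 2.34e-07), -0.52 with wtFGF2 (adjusted p = 3.79e-06) and -0.43 with F2V2 (adjusted p = 4.41e-05, under 1.4-fold), and the call with wtFGF2 was lost without wtFGF2 array 4. Kcna1 averaged 10.23 ± 0.05 with humanFGF2, 10.31 ± 0.10 with wtFGF2, 10.50 ± 0.08 with F2V2 and 10.70 ± 0.04 in Control (SD, n = 4 each), and its log2 fold change of -0.48 with humanFGF2 (adjusted p = 2.48e-06) stayed just under the fold criterion.

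Kcna6, a further Kv1 alpha subunit of neurons, had values of 9.12, 9.20, 9.10 and 9.24 with humanFGF2, 9.13, 9.25, 9.24 and 9.06 with wtFGF2, 9.46, 9.35, 9.45 and 9.31 with F2V2, and 9.85, 9.71, 9.80 and 9.72 in Control. The 3 sets of treated arrays lay below Control, and the humanFGF2 and wtFGF2 arrays also below those of F2V2. Log2 fold changes of Kcna6 were -0.61 with humanFGF2 (adjusted p = 1.77e-07), -0.60 with wtFGF2 (adjusted p = 3.97e-07) and -0.38 with F2V2 (adjusted p = 7.94e-05, under 1.4-fold). Kcna4, whose channels inactivate quickly, averaged 7.66 ± 0.04 with humanFGF2, 7.76 ± 0.13 with wtFGF2, 7.84 ± 0.13 with F2V2 and 8.29 ± 0.21 in Control. The corresponding differences from Control were -0.63 (adjusted p = 2.46e-05), -0.53 (adjusted p = 0.000207) and -0.45 (adjusted p = 0.00117, under 1.4-fold), and the call with wtFGF2 was lost without Control array 1 or wtFGF2 array 1. Of the other Kv1 genes, Kcna3 had differences of -0.29, -0.41 and -0.31 with humanFGF2, wtFGF2 and F2V2, and Kcna5, Kcna7 and Kcna10 differed from Control by 0.23 or less with every ligand.

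Of the beta subunits that attach to Kv1 channels, Kcnab1 and Kcnab2 moved in opposite directions with humanFGF2. Kcnab2, which promotes delivery of Kv1 channels to the axon, had values of 9.53, 9.68, 9.58 and 9.65 with humanFGF2, 9.62, 9.73, 9.74 and 9.53 with wtFGF2, 9.91, 9.87, 9.84 and 9.84 with F2V2, and 10.14, 10.22, 10.20 and 10.19 in Control. It fell with humanFGF2 (log2 fold change -0.58, adjusted p = 1.05e-07) and with wtFGF2 (-0.53, adjusted p = 5.1e-07), and stood 0.32 lower with F2V2 than in Control, under 1.4-fold (log2 fold change -0.32, adjusted p = 0.000146). Kcnab1, a beta subunit that confers fast inactivation, had values of 9.81, 9.79, 9.89 and 9.87 with humanFGF2, 9.39, 9.55, 9.50 and 9.47 with wtFGF2, 9.26, 9.33, 8.96 and 9.06 with F2V2, and 9.43, 9.23, 9.24 and 9.25 in Control. The 4 humanFGF2 arrays lay above all others, and those of wtFGF2 and of F2V2 overlapped with Control. Kcnab1 rose with humanFGF2 by 0.55 (standard error 0.07, adjusted p = 8.55e-06), and its difference from Control was 0.19 with wtFGF2 (adjusted p = 0.0531) and -0.13 with F2V2 (adjusted p = 0.188). Kcnab3, the remaining member of the class, differed from Control by -0.09 with humanFGF2, -0.25 with wtFGF2 and -0.32 with F2V2, below the fold criterion in each case.

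Kcnb2, the Kv2 subunit whose delayed rectifier current limits repetitive firing, fell with all 3 ligands. Its values were 8.61, 8.87, 8.83 and 8.68 with humanFGF2, 8.74, 8.76, 8.61 and 8.70 with wtFGF2, 8.66, 8.80, 8.82 and 8.79 with F2V2, and 9.26, 9.33, 9.36 and 9.50 in Control. The treated groups overlapped with each other and none overlapped with Control. Log2 fold changes were -0.61 with humanFGF2 (adjusted p = 8.96e-07), -0.66 with wtFGF2 (adjusted p = 7.62e-07) and -0.59 with F2V2 (adjusted p = 3.75e-06). The direct difference of humanFGF2 minus F2V2 was -0.02 with a 95% confidence interval of -0.16 to 0.12.

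Kcnc1, a Kv3 subunit of fast-spiking neurons, averaged 9.41 ± 0.10 with humanFGF2, 9.41 ± 0.13 with wtFGF2, 9.56 ± 0.10 with F2V2 and 9.89 ± 0.04 in Control. It was called lower with humanFGF2 (log2 fold change -0.49, adjusted p = 1.5e-05) and with wtFGF2 (-0.49, adjusted p = 2.37e-05), both so close to 1.4-fold that leaving out Control array 1 or 3, humanFGF2 array 1, or wtFGF2 array 1 or 4 ended a call, and it was not called with F2V2 (-0.33, adjusted p = 0.00112). Of the 3 Kv4 subunits, which carry the somatodendritic A-type current, Kcnd2 and Kcnd3 were called lower with humanFGF2. Kcnd2 had values of 10.60, 10.63, 10.69 and 10.70 with humanFGF2, 10.82, 10.92, 10.90 and 10.85 with wtFGF2, 10.93, 10.99, 11.18 and 10.95 with F2V2, and 11.29, 11.17, 11.17 and 11.25 in Control. The groups formed steps, with humanFGF2 lowest, then wtFGF2, then F2V2, which touched the lowest Control values. Differences of Kcnd2 from Control were -0.56 with humanFGF2 (adjusted p = 3.82e-07), -0.35 with wtFGF2 (adjusted p = 0.000112) and -0.21 with F2V2 (adjusted p = 0.00952). Kcnd3 averaged 9.92 ± 0.07 with humanFGF2, 10.02 ± 0.03 with wtFGF2, 10.12 ± 0.18 with F2V2 and 10.41 ± 0.04 in Control, with a log2 fold change of -0.49 with humanFGF2 (adjusted p = 2.49e-05) that lay at the fold criterion and fell short of it without Control array 4, humanFGF2 array 1 or humanFGF2 array 2. Kcnd1, the third Kv4 gene, stood above Control by 0.44 with humanFGF2, 0.46 with wtFGF2 and 0.41 with F2V2 (adjusted p = 9.2e-05, 8.47e-05 and 0.00033), under 1.4-fold in all comparisons.

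Kcnq3, a subunit of the channels whose M-current restrains neuronal firing, fell with all 3 ligands. It had values of 8.64, 8.72, 8.81 and 8.69 with humanFGF2, 8.59, 8.75, 8.82 and 8.63 with wtFGF2, 8.77, 8.78, 8.94 and 8.79 with F2V2, and 9.46, 9.25, 9.25 and 9.34 in Control. No treated array reached the lowest Control array. Log2 fold changes were -0.61 with humanFGF2 (adjusted p = 6.6e-07), -0.63 with wtFGF2 (adjusted p = 8.65e-07) and -0.50 with F2V2 (adjusted p = 1.56e-05), and the call with F2V2 was lost without Control array 1. Kcnq5, another M-current subunit, averaged 9.94 ± 0.06 with humanFGF2, 9.76 ± 0.08 with wtFGF2, 9.63 ± 0.08 with F2V2 and 9.55 ± 0.06 in Control, and its difference of 0.39 with humanFGF2 (adjusted p = 2.41e-05) was below 1.4-fold. Kcnq1, the third gene of the class, differed from Control by 0.07 or less with each ligand.

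In the EAG family, 1 of 7 genes was called lower with each ligand (14.3%, against 8.6%, 5.92% and 3.6% of all rows with humanFGF2, wtFGF2 and F2V2). It was Kcnh5, which encodes a non-inactivating Kv channel of neurons (EAG2). Values of Kcnh5 were 8.55, 8.68, 8.70 and 8.71 with humanFGF2, 8.58, 8.91, 8.84 and 8.86 with wtFGF2, 9.09, 8.98, 9.14 and 9.02 with F2V2, and 9.70, 9.47, 9.54 and 9.63 in Control. The F2V2 arrays lay between the other ligands and Control without overlap on either side. Kcnh5 fell 1.90-fold with humanFGF2 (log2 fold change -0.92, standard error 0.07, adjusted p = 1.5e-08), 1.73-fold with wtFGF2 (-0.79, adjusted p = 1.88e-07) and 1.44-fold with F2V2 (-0.53, adjusted p = 2.46e-05). Kcnh7, a relative of the same family, had differences of -0.45, -0.48 and -0.43 with humanFGF2, wtFGF2 and F2V2, just under the fold criterion.

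Silent Kv subunits form no channel alone and alter Kv2 channels when they join them. Of these 9 genes, Kcnf1 (Kv5.1) was called, and it was the subunit with the largest rise. This 1 gene is 11.1% of the class called higher, against 10.5% of all rows with humanFGF2 and 7.06% with wtFGF2. Its values were 8.37, 8.61, 8.61 and 8.46 with humanFGF2, 7.89, 8.09, 7.87 and 8.00 with wtFGF2, 7.52, 7.59, 7.61 and 7.22 with F2V2, and 7.16, 7.14, 6.96 and 7.49 in Control. The humanFGF2 arrays lay above every wtFGF2 array, these above every F2V2 array, and F2V2 overlapped with Control. Kcnf1 rose 2.50-fold with humanFGF2 (log2 fold change 1.32, standard error 0.11, adjusted p = 2.04e-08) and 1.71-fold with wtFGF2 (0.77, adjusted p = 1.62e-05), while its difference of 0.30 with F2V2 was below 1.4-fold (adjusted p = 0.0386). Among the other silent subunits, Kcns2 was nearest to the fold criterion with humanFGF2 (-0.47) and wtFGF2 (-0.44), and its difference was -0.23 with F2V2.

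**Figure D2:**
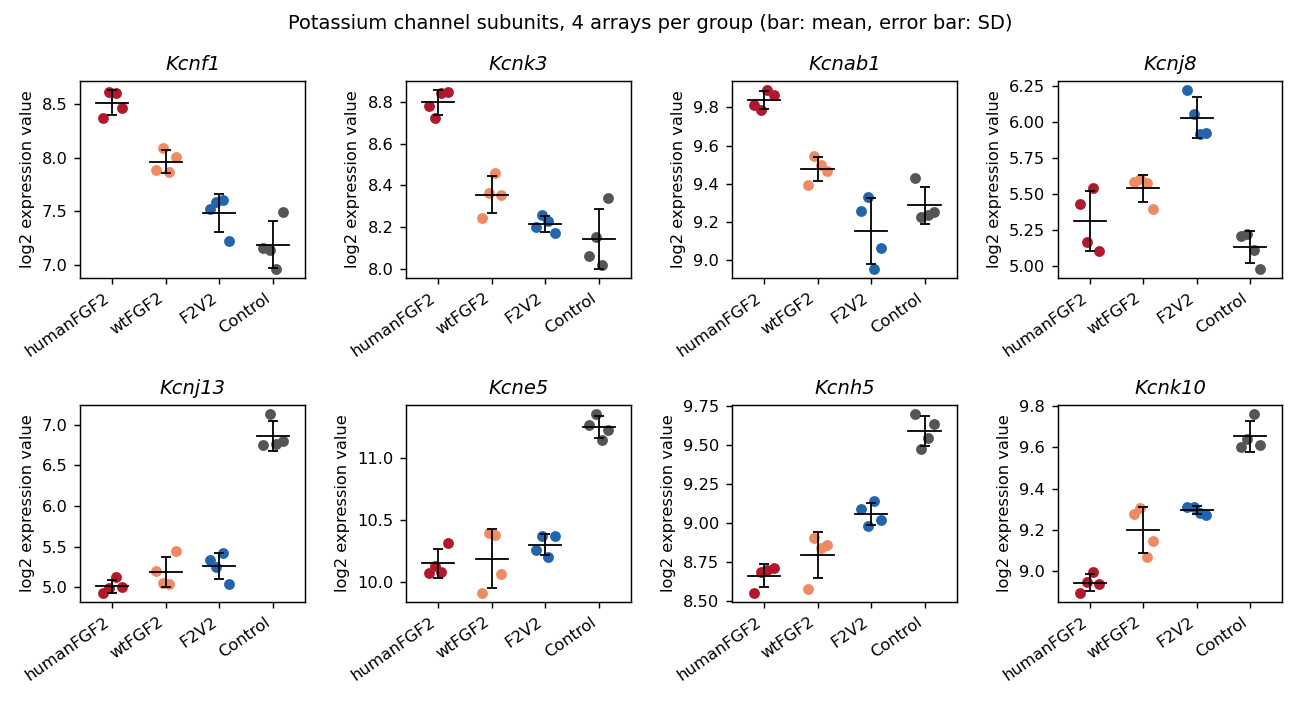
Log2 expression values (y axis, own range in each panel) of 8 subunits on the 4 arrays of each group (x axis), with the mean as a bar and the SD as an error bar. Kcnf1, Kcnk3 and Kcnab1 were highest with humanFGF2 and Kcnj8 with F2V2, whereas Kcnj13, Kcne5, Kcnh5 and Kcnk10 lay below Control with all 3 ligands.

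Among auxiliary subunits of the KCNE family, single-pass proteins that modulate Kv channels, Kcne5 fell with all 3 ligands. Kcne5, known to suppress the current of Kcnq1 channels in expression systems, had values of 10.07, 10.13, 10.08 and 10.32 with humanFGF2, 9.92, 10.40, 10.38 and 10.07 with wtFGF2, 10.26, 10.37, 10.20 and 10.37 with F2V2, and 11.26, 11.36, 11.15 and 11.22 in Control. The highest treated array, at 10.40, lay below the lowest Control array, at 11.15. It was 2.14-fold lower with humanFGF2 (log2 fold change -1.10, standard error 0.10, adjusted p = 6e-08), 2.08-fold lower with wtFGF2 (-1.06, adjusted p = 1.79e-07) and 1.93-fold lower with F2V2 (-0.95, adjusted p = 1.03e-06). Kcne2, best known from epithelia and heart, averaged 6.27 ± 0.17 with humanFGF2, 6.17 ± 0.14 with wtFGF2, 6.30 ± 0.15 with F2V2 and 6.67 ± 0.21 in Control. Kcne2 was called lower with wtFGF2 (log2 fold change -0.50, adjusted p = 0.0015), a call that was lost when any of wtFGF2 arrays 1 and 3 or Control arrays 1 and 4 was left out. The differences of Kcne2 with humanFGF2 (-0.40, adjusted p = 0.00602) and F2V2 (-0.37, adjusted p = 0.0151) were under 1.4-fold. Kcne1, Kcne3 and Kcne4 were not called.

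Kcnmb4, the neuronal beta subunit of large-conductance calcium-activated (BK) channels, averaged 6.57 ± 0.11 with humanFGF2, 6.68 ± 0.13 with wtFGF2, 6.74 ± 0.18 with F2V2 and 7.10 ± 0.19 in Control. It was called lower with humanFGF2 (log2 fold change -0.52, adjusted p = 0.000386), and the call was lost without humanFGF2 array 1 or Control array 2. The BK pore subunit itself is not analysed here. Kcnt2, which forms sodium-activated channels, averaged 6.91 ± 0.13 with humanFGF2, 6.81 ± 0.01 with wtFGF2, 7.09 ± 0.08 with F2V2 and 7.33 ± 0.16 in Control. It fell with wtFGF2 (log2 fold change -0.51, adjusted p = 3.64e-05), a call lost without Control array 1, and differed from Control by -0.41 with humanFGF2 (adjusted p = 0.000208) and -0.23 with F2V2 (adjusted p = 0.0248). The calcium-activated Kcnn3 and Kcnn4 and the KChIP proteins Kcnip1 and Kcnip4, which bind Kv4 channels, had no call with any ligand. By adjusted p alone, 1 of the 2 KChIP genes was lower with humanFGF2 and 2 with wtFGF2 and with F2V2 (of all rows, 21.3%, 18.6% and 16.3%). Of Kcnn3 and Kcnn4, 1 was higher by adjusted p alone with humanFGF2, 0 with wtFGF2 and 2 with F2V2 (of all rows, 24.5%, 20.7% and 17.3%).

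Within the K2P class of background channels, Kcnk3 and Kcnk10 moved in opposite directions with humanFGF2, and none of the 12 genes was called with wtFGF2 or F2V2. With humanFGF2, 8.33% of the class was called higher and 8.33% lower, against 10.5% and 8.6% of all rows. Kcnk3 (TASK-1), which is closed by acid, had values of 8.78, 8.72, 8.84 and 8.85 with humanFGF2, 8.24, 8.37, 8.46 and 8.35 with wtFGF2, 8.20, 8.26, 8.23 and 8.17 with F2V2, and 8.06, 8.15, 8.02 and 8.34 in Control. The humanFGF2 arrays stood apart from the other 12, and those of wtFGF2 and F2V2 overlapped with Control. Kcnk3 rose 1.57-fold with humanFGF2 (log2 fold change 0.65, standard error 0.07, adjusted p = 3.48e-07) and differed from Control by 0.21 with wtFGF2 (adjusted p = 0.017) and 0.07 with F2V2 (adjusted p = 0.455). Kcnk10 (TREK-2), a channel opened by stretch and fatty acids, had values of 8.89, 8.95, 8.99 and 8.94 with humanFGF2, 9.27, 9.31, 9.07 and 9.14 with wtFGF2, 9.31, 9.31, 9.28 and 9.27 with F2V2, and 9.60, 9.64, 9.76 and 9.61 in Control. Here humanFGF2 was lowest, Control highest, and wtFGF2 and F2V2 lay between them and overlapped. The log2 fold change of Kcnk10 was -0.71 with humanFGF2 (standard error 0.06, adjusted p = 1.74e-08), -0.46 with wtFGF2 (adjusted p = 5.49e-06) and -0.36 with F2V2 (adjusted p = 9.36e-05).

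The Kir class held the largest fall. Kcnj13 (Kir7.1), best known from the epithelia of choroid plexus and retinal pigment, had values of 4.93, 4.99, 5.12 and 5.00 with humanFGF2, 5.20, 5.05, 5.04 and 5.44 with wtFGF2, 5.34, 5.25, 5.42 and 5.03 with F2V2, and 6.75, 7.14, 6.77 and 6.80 in Control. The 12 treated arrays lay near the floor and the 4 Control arrays well above it. Kcnj13 was 3.61-fold lower with humanFGF2 (log2 fold change -1.85, standard error 0.10, adjusted p = 2.97e-10), 3.21-fold lower with wtFGF2 (-1.68, adjusted p = 2.38e-09) and 3.04-fold lower with F2V2 (-1.60, adjusted p = 6.92e-09). As the treated values are near the floor, the true falls may be larger and their order cannot be read from these arrays. Markers of choroid plexus, a list added after the values had been seen, were not uniform. Ttr, its most abundant transcript, averaged 4.41 with humanFGF2, 4.40 with F2V2 and 4.39 in Control, and with wtFGF2 it was 4.44, 4.42, 4.55 and 7.24. The high value lay on wtFGF2 array 4, on which Kcnj13 had its highest treated value (5.44). Kcnj13 was 5.42 on F2V2 array 3, where Ttr was 4.38, and the Control arrays had Ttr values of 4.45, 4.33, 4.37 and 4.40. Folr1 was 1.46 lower with humanFGF2 than in Control (log2 fold change -1.46) while Kl was higher by 1.85. Of the 7 measured genes of that list, 3 were called lower and 1 higher with humanFGF2 (of all rows, 8.6% and 10.5%), 2 and 1 with wtFGF2 (5.92% and 7.06%), and 2 and 0 with F2V2 (3.6% and 5.78%). Their part in the result for Kcnj13 was not tested.

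Kcnj8 (Kir6.1), the pore of ATP-sensitive channels in pericytes and smooth muscle, rose with F2V2. It had values of 5.43, 5.17, 5.54 and 5.10 with humanFGF2, 5.58, 5.60, 5.58 and 5.39 with wtFGF2, 6.22, 6.06, 5.91 and 5.92 with F2V2, and 5.21, 5.22, 5.11 and 4.98 in Control. The F2V2 arrays lay above all 12 others, wtFGF2 lay above Control, and humanFGF2 overlapped with both Control and wtFGF2. Kcnj8 was 1.86-fold higher with F2V2 than in Control (log2 fold change 0.90, standard error 0.10, adjusted p = 2.01e-06), and the difference was 0.41 with wtFGF2 (adjusted p = 0.0026, under 1.4-fold) and 0.18 with humanFGF2 (adjusted p = 0.149). As the Control values are near the floor, these differences may be understated. Abcc9, which encodes the sulfonylurea receptor that pairs with Kcnj8, averaged 4.34 with humanFGF2, 4.55 with wtFGF2, 4.53 with F2V2 and 4.36 in Control. It had no call, but its values lie near the floor, where a change could be missed. Of 6 measured markers of fibroblasts and pericytes, 1 was called higher with F2V2 (Postn, log2 fold change 1.20) and 0 lower, and their array means ran from 8.93 to 9.18 with F2V2 and from 8.45 to 9.22 in Control. By sign alone, 2 of the 6 were higher with F2V2 and 4 lower. The pericyte receptor Pdgfrb was among the lower ones, with a mean of 8.05 with F2V2 and 8.44 in Control. With humanFGF2, 1 was called higher (Postn, 2.00) and 2 lower, among them Pdgfrb (-0.53), and with wtFGF2 1 was called higher (Postn, 1.83). Of all rows, 10.5% were called higher and 8.6% lower with humanFGF2, 7.06% and 5.92% with wtFGF2, and 5.78% and 3.6% with F2V2. None of 3 measured endothelial markers was called with any ligand. For 2 of them, Tek and Cldn5, the mean of every group was under 5, near the floor, so a change in these genes could be missed. The part of these cells in the rise of Kcnj8 was not tested.

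Kcnj3 (GIRK1), through which G protein-coupled receptors inhibit neurons, averaged 9.47 ± 0.07 with humanFGF2, 9.64 ± 0.10 with wtFGF2, 9.59 ± 0.08 with F2V2 and 9.97 ± 0.11 in Control. It was called lower with humanFGF2 (log2 fold change -0.50, adjusted p = 7.71e-06), except when humanFGF2 array 1 or Control array 1 was left out, and differed from Control by -0.34 with wtFGF2 and -0.38 with F2V2. Kcnj14 (Kir2.4) averaged 6.39 ± 0.08 with humanFGF2, 6.13 ± 0.21 with wtFGF2, 6.25 ± 0.10 with F2V2 and 6.72 ± 0.12 in Control, and was called lower with wtFGF2 (log2 fold change -0.59, adjusted p = 6.27e-05). Its differences of -0.47 with F2V2 (adjusted p = 0.000697) and -0.33 with humanFGF2 (adjusted p = 0.00669) were under 1.4-fold. Kcnj10 (Kir4.1), the main potassium channel of astrocytes, is outside the rule and averaged 8.95 ± 0.15 with humanFGF2, 10.33 ± 0.10 with wtFGF2, 10.98 ± 0.12 with F2V2 and 11.17 ± 0.09 in Control. Kcnj16, its partner subunit, averaged 6.49 ± 0.19 with humanFGF2, 6.54 ± 0.15 with wtFGF2, 6.72 ± 0.30 with F2V2 and 6.55 ± 0.36 in Control, and was not called in any comparison.

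**Figure D3:**
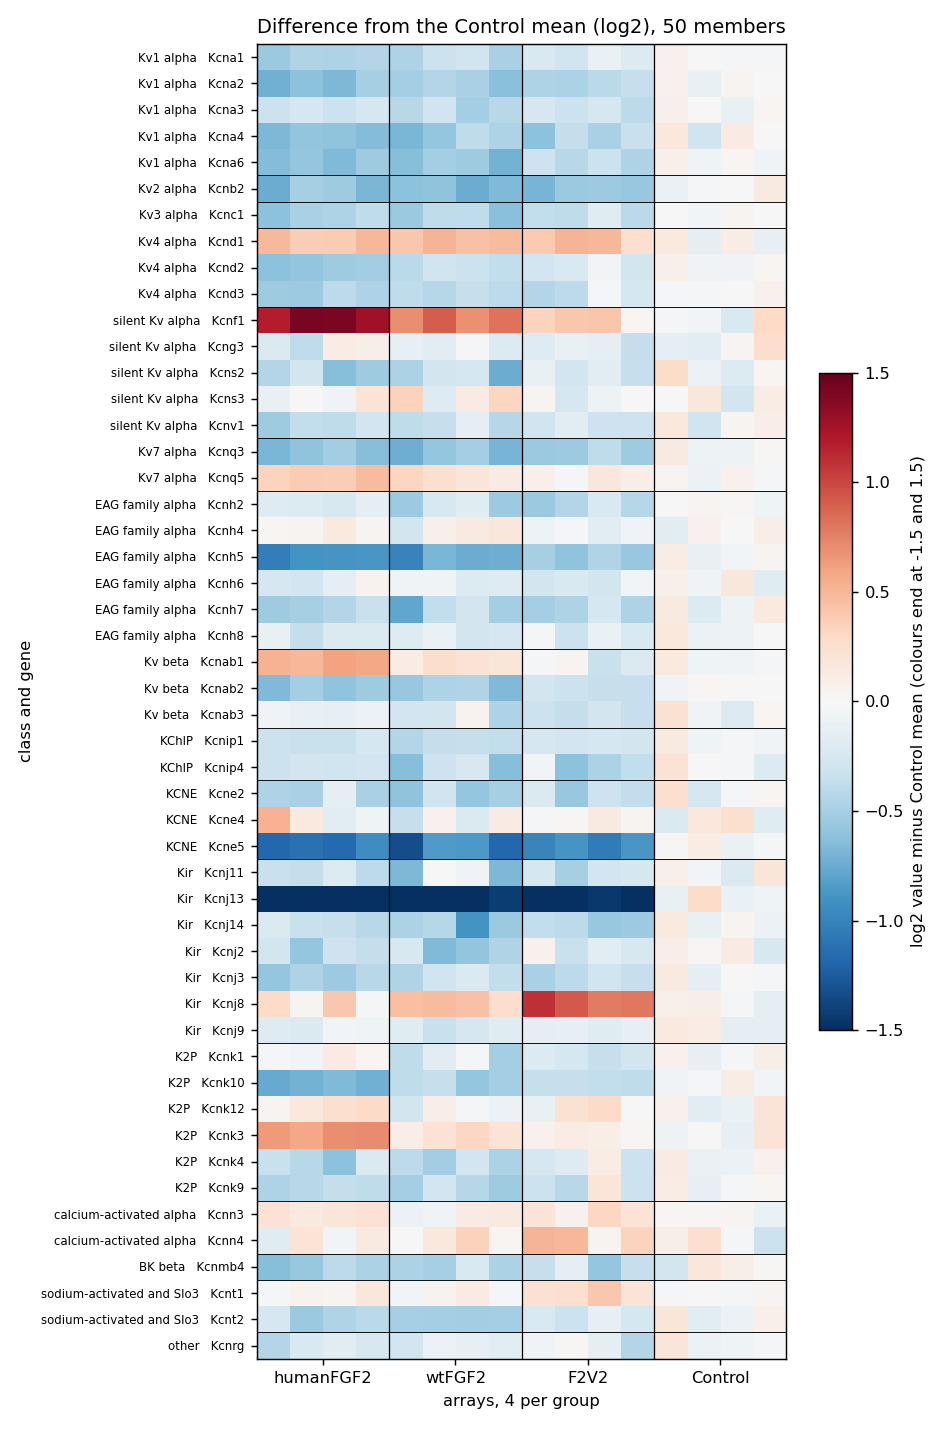
Log2 value of each array minus the Control mean of the same gene (colour) for the 50 subunits that reached a log2 value of 5 on at least 4 arrays (rows, by class), with the 4 arrays of each group side by side (columns). Colours end at -1.5 and 1.5; Kcnf1 (1.32 with humanFGF2) is the darkest red row and Kcnj13 (-1.85 with humanFGF2) the darkest blue.

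In the direct comparison of humanFGF2 with F2V2, 3 subunits were called higher with humanFGF2 (4.11%, against 2.9% of all rows) and 1 lower (1.37%, against 2.94%). Kcnf1 was 2.04-fold higher with humanFGF2 than with F2V2 (log2 difference 1.03, 95% confidence interval 0.80 to 1.25, adjusted p = 2.61e-06). Kcnab1 was higher by 0.69 (0.53 to 0.84, adjusted p = 4.34e-06) and Kcnk3 by 0.58 (0.44 to 0.72, adjusted p = 7.57e-06). Kcnj8 was lower with humanFGF2 than with F2V2, with a difference of -0.72 (-0.92 to -0.52, adjusted p = 4.06e-05). For subunits called lower with both ligands, the interval of humanFGF2 minus F2V2 was -0.35 to 0.05 for Kcne5, -0.25 to 0.03 for Kcnq3 and -0.16 to 0.12 for Kcnb2, each short of 1.4-fold, while Kcnj13 was near the floor with both and its difference is not bounded here. For Kcnh5 the difference was -0.39 (-0.55 to -0.24, adjusted p = 0.000689), for Kcnd2 -0.36 (-0.48 to -0.23, adjusted p = 0.000247) and for Kcnk10 -0.35 (-0.47 to -0.23, adjusted p = 0.00021), each lower with humanFGF2 and under 1.4-fold. Over the 73 subunits, 5 were higher (against 11.9% of all rows) and 9 lower (against 9.93%) by adjusted p alone.

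**Figure D4:**
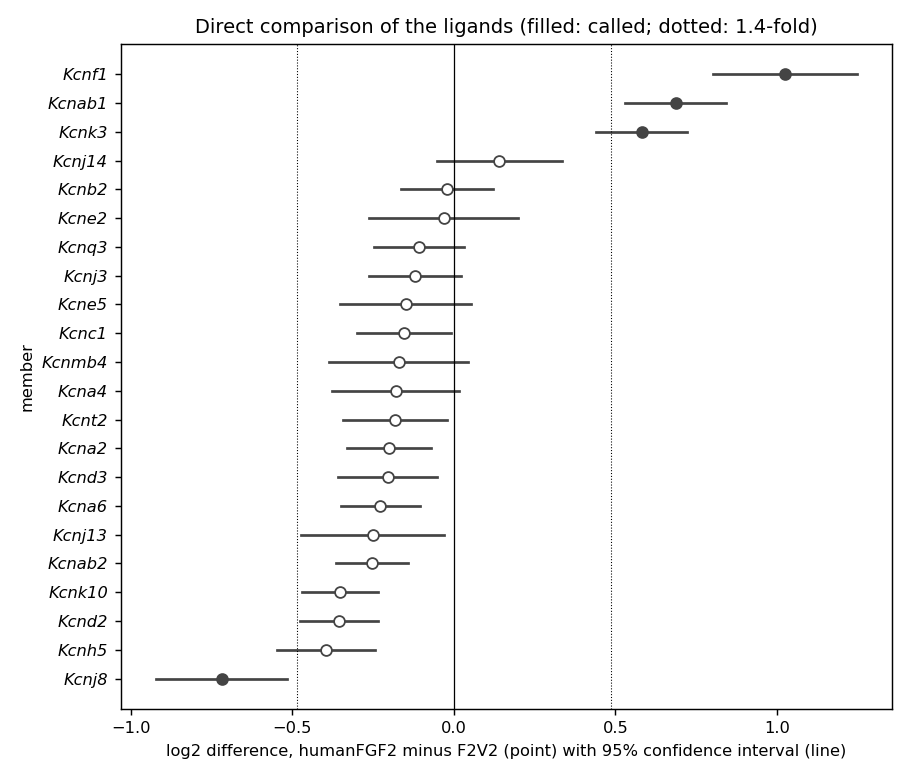
Log2 difference of humanFGF2 minus F2V2 (x axis) for the 22 called subunits (y axis), with its 95% confidence interval as a line. Filled points (Kcnf1 at 1.03, Kcnab1 at 0.69, Kcnk3 at 0.58 and Kcnj8 at -0.72) were called, and dotted lines mark 1.4-fold.

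Between wtFGF2 and F2V2, 0 subunits were called higher (against 0.524% of all rows) and 1 lower (1.37%, against 0.894%). Leaving out 1 of wtFGF2 arrays 1 and 3 or F2V2 arrays 1 to 3 gave a count of 1 higher. Without the fold criterion, 2 were higher (against 1.68% of all rows) and 5 lower (against 2.24%) by adjusted p. The subunit called was Kcnj8, lower with wtFGF2 than with F2V2 (log2 difference -0.49, 95% confidence interval -0.69 to -0.29, adjusted p = 0.00711), and leaving out wtFGF2 array 4, F2V2 array 1 or F2V2 array 2 ended the call. Kcnf1 was higher with wtFGF2 than with F2V2 by 0.48 (0.25 to 0.70, adjusted p = 0.0159), just under 1.4-fold, and was called where arrays were quantile-normalized or had their medians subtracted, and under both of these settings the call of Kcnj8 was lost. Kcnab1 was higher by 0.32 (0.17 to 0.48, adjusted p = 0.0196).

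Between wtFGF2 and humanFGF2, 0 subunits were called higher (against 0.696% of all rows) and 1 lower (1.37%, against 1.28%), and 2 were higher (against 3.51% of all rows) and 4 lower (against 4.93%) by adjusted p alone. Kcnf1 was the subunit called, lower with wtFGF2 than with humanFGF2 (log2 difference -0.55, 95% confidence interval -0.77 to -0.33, adjusted p = 0.00323). Kcnk3 was lower by the same comparison, with -0.44 (-0.58 to -0.30, adjusted p = 0.000389), and Kcnab1 with -0.36 (-0.52 to -0.21, adjusted p = 0.005), both under 1.4-fold. For the Kv1 subunits the proteins were close, with differences of 0.11 for Kcna2 (-0.02 to 0.24), 0.10 for Kcna4 (-0.10 to 0.30) and 0.01 for Kcna6 (-0.11 to 0.13).

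Of 18 measured genes on a hand-written list of potassium channel partners and regulators, 5 were called lower with humanFGF2 (27.8%, against 8.6% of all rows), 7 with wtFGF2 (38.9%, against 5.92%) and 2 with F2V2 (11.1%, against 3.6%), and 0 were called higher with any ligand. The list also held genes that are not established partners, among them the proton channel gene Hvcn1. The median difference was -0.34 with humanFGF2, -0.34 with wtFGF2 and -0.26 with F2V2, beside medians of 0.02, 0.03 and 0.01 over all rows. Dpp10, which joins Kv4 channels and speeds their gating, had log2 fold changes of -0.76 with humanFGF2, -0.64 with wtFGF2 and -0.49 with F2V2. Lrrc55, an auxiliary subunit of BK channels, had -0.89, -0.88 and -0.73 with the same ligands. Lgi3, a secreted protein of the family that associates with Kv1 complexes, had -1.01 with humanFGF2, -0.61 with wtFGF2 and -0.37 with F2V2, and Akap5, which anchors kinases at M-current channels, had -0.77, -0.65 and -0.40. None of the 3 measured hyperpolarization-activated channels (Hcn2, Hcn3 and Hcn4) was called, and of 11 measured pumps and cotransporters the chloride-potassium exporter Slc12a4 was called higher with humanFGF2 (0.52; 9.09% of the list, against 10.5% of all rows) and the pump regulator Fxyd1 lower (-0.53; 9.09%, against 8.6%), with no call for wtFGF2 or F2V2.

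Many of these subunits are made by neurons, and in a mixed culture fewer cells of a type and less RNA per cell cannot be told apart. Of 12 measured neuronal markers, 0 were called with any ligand. By adjusted p alone, 7 were lower with humanFGF2 (58.3%, against 21.3% of all rows), 7 with wtFGF2 (58.3%, against 18.6%) and 9 with F2V2 (75%, against 16.3%). The median difference of these markers was -0.17, -0.20 and -0.20. Array means of the 12 markers ran from 9.94 to 10.02 with humanFGF2, from 9.89 to 10.02 with wtFGF2, from 9.87 to 9.97 with F2V2 and from 10.10 to 10.20 in Control, so the treated arrays lay below Control. Nefm, a neurofilament gene, had a log2 fold change of -0.42 with humanFGF2, the marker furthest from Control, and Isl1 and Slc17a7 were near the floor in all groups. Oligodendrocyte and astrocyte markers had larger median differences. Beside the counts that follow, 8.6% of all rows were called lower and 10.5% higher with humanFGF2, 5.92% and 7.06% with wtFGF2, and 3.6% and 5.78% with F2V2. Of 9 oligodendrocyte markers, 8 were called lower with humanFGF2, 7 with wtFGF2 and 3 with F2V2 (medians -0.95, -0.61 and -0.35), and their array means ran from 9.10 to 9.28 with humanFGF2, from 9.49 to 9.51 with wtFGF2, from 9.74 to 9.88 with F2V2 and from 10.10 to 10.32 in Control. Of 7 astrocyte markers, which include Kcnj10, 5 were called lower with humanFGF2, 4 with wtFGF2 and 1 with F2V2 (medians -0.83, -0.56 and -0.27). Of 7 progenitor markers, 0 were called higher and 3 lower with humanFGF2, and 2 higher and 1 lower with wtFGF2 and with F2V2. Of 12 microglial markers, 0 were called higher and 2 lower with humanFGF2, 1 and 0 with wtFGF2, and 2 and 0 with F2V2 (medians -0.06, 0.06 and 0.15). The part of these shifts in the potassium channel results was not tested. All 4 measured genes of dividing cells and all 7 of a list of ERK feedback genes, which FGF receptors induce, were called higher with each ligand.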

How the data were processed

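RNA was measured on 16 Rat Gene 2.1 ST arrays of Affymetrix (4 each for humanFGF2, wtFGF2, F2V2 and Control) after amplification and biotin labelling. For the deposited log2 values, the authors used GCRMA on probe sets and summarized them to transcript clusters with Tukey's biweight in a single step, with Partek Genomics Suite 6.6; the genome build was not given in the sources used here. That they are log2 values follows from the method and their range, 3.02 to 14.5. No detection calls were used, and the number of arrays limits the precision.

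Of 36685 rows, 15653 carried a gene symbol in the platform annotation, 14824 of them 1 symbol and 829 several, which were tested but not named. All 4 groups entered 1 linear model in R 4.3.3 (limma 3.58.1, functions lmFit and eBayes). Each ligand was set against Control and against the other ligands, with Benjamini-Hochberg adjustment over all 15653 rows. Calls needed an adjusted p under 0.05 together with a 1.4-fold change. The fit was tested on simulated data. Channel classes, marker lists and partner lists, of which 29 partners and 18 neuronal markers were listed and 18 and 12 measured, were written by hand. Subunits, lists and tests were chosen with earlier results of these data known. Named are the subunits called against Control or between ligands, Kcnj10 and Kcnj16, and subunits that complete a class. Other list genes named are among the 4 of lowest adjusted p in humanFGF2 minus Control in their list, but not all of those 4 are named for every list. Abcc9, Ttr, Isl1 and Slc17a7 were chosen after their values were seen. Promoters are RefSeq's, GRCr8.

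Alternatives were no fold threshold or 2-fold, all rows, removal of dim rows (a log2 value of 5 reached on fewer than 4 arrays), quantile normalization, subtraction of array medians, a trended robust prior, plain ANOVA contrasts, a fit of fewer groups, a block on the replicate number, a mean over rows and each array left out in turn.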

Additional observations from a re-analysis of the deposited data

Results flagged for a closer look

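Among 96 sets of 4 arrays (24 genes in 4 groups), 8 held an array set apart from the other 3 by more than Dixon's 95% critical value, where chance gives about 1 in 20. Kcnj13 was 7.14 on Control array 2, against 6.75 to 6.80 on the others, and Kcnab1 was 9.43 on Control array 1, against 9.23 to 9.25. Kcnj8 was 5.39 on wtFGF2 array 4, against 5.58 to 5.60, which is an array whose omission ended the call of Kcnj8 between wtFGF2 and F2V2. In F2V2 cultures, Kcnb2 was 8.66 on array 1, against 8.79 to 8.82, and Kcnq3 was 8.94 on array 3, against 8.77 to 8.79. Kcne2 was 6.52 on humanFGF2 array 3, against 6.18 to 6.20, and Kcnmb4 was 6.87 on wtFGF2 array 3, against 6.60 to 6.62. Kcnj16 was 6.01 on Control array 4, against 6.70 to 6.77. These values lie on several arrays, and no array was left out of the comparisons.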

How the results depend on the processing

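The 44 calls of single subunits were recomputed under alternatives, which gave 600 values; 538 kept direction and call, 62 lost the call and 0 turned direction. Having no fold threshold could not end a call. Without the 2-fold and no-threshold settings, 487 of 512 kept the call. Among the remaining settings, only quantile normalization, subtraction of medians and leaving out an array altered the fold changes, and every lost call came from these. The others could end a call only through the adjusted p, so both shares overstate how stable the calls are. Under no fold threshold, counts higher and lower were 7 and 30 for humanFGF2 minus Control, 6 and 33 for wtFGF2 minus Control, 6 and 27 for F2V2 minus Control, 5 and 9 for humanFGF2 minus F2V2, 2 and 5 for wtFGF2 minus F2V2, and 2 and 4 for wtFGF2 minus humanFGF2. With 2-fold they were 1 and 2, 0 and 2, 0 and 1, 1 and 0, 0 and 0, and 0 and 0. Quantile normalization gave 2 higher for wtFGF2 minus Control and 1 higher and 0 lower for wtFGF2 minus F2V2, as did subtraction of array medians (2, 1 and 0). Leaving out 1 array gave 3 higher and 11 to 17 lower for humanFGF2 minus Control, 1 to 2 and 10 to 18 for wtFGF2 minus Control, 1 and 4 to 8 for F2V2 minus Control, 3 and 1 for humanFGF2 minus F2V2, 0 to 1 and 0 to 1 for wtFGF2 minus F2V2, and 0 and 1 for wtFGF2 minus humanFGF2. Of the 44 calls, 11 were lost without some array; their adjusted p stayed at or below 0.0295, so that the loss was at the fold criterion. Quantile normalization ended the calls of Kcnmb4 (humanFGF2), Kcne2 and Kcnt2 (wtFGF2) and Kcnj8 (wtFGF2 minus F2V2). Subtraction of medians ended the same calls and those of Kcnc1, Kcnd3 and Kcnj3 (humanFGF2), Kcna2 and Kcnc1 (wtFGF2) and Kcnq3 (F2V2). The replicate numbers did not pair the arrays (24 same-number pairs, r from -0.165 to 0.220, 3 of them over 0.1; 2 of 16 arrays correlated best with their own number), and with the replicate number as a block the counts were 3 and 15, 1 and 13, 1 and 5, 3 and 1, 0 and 1, and 0 and 1, as without it.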
